A study of Homo sapiens with 23 samples.

Results

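Transcripts of 10 UDP-glucuronosyltransferase (UGT) genes were followed in both cell lines of the iGLC platform. They are UGT1A1, UGT1A6, UGT1A9, UGT2A3, UGT2B4, UGT2B7, UGT2B10, UGT2B11, UGT2B15 and UGT2B17. They were taken by gene symbol, and all 10 were found among the 60564 gene identifiers of every library. UGTs sit in the membrane of the endoplasmic reticulum and join glucuronic acid, from UDP-glucuronic acid, to bilirubin, bile acids, steroid hormones, phenols and many drugs, which makes them soluble enough to leave the cell through ABC transporters. The liver is the main site of this reaction, and the gut wall is where many swallowed compounds first meet it.

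mRNA was sequenced from 23 libraries, 11 of Caco-2 cells, a human colorectal adenocarcinoma line used to mimic gut epithelium, and 12 of HepG2 cells, a human hepatocellular carcinoma line used to mimic hepatocytes. Each line was mono-cultured or co-cultured with the other in a microfluidic chip with circulating medium, and was either given free fatty acids (FFAs), palmitic and oleic acid together at 1 mM, for 1 day or left without them. Every group had 3 libraries except co-cultured Caco-2 control cells, which had 2. All groups carried the unmodified lines, and values are in TPM, the share of a library's transcripts after correction for gene length, in which levels of different genes are comparable per length. The labels do not say whether replicates came from separate cultures, so that p-values measure the spread between these libraries only, and the depth of the libraries is unknown.

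The lines were told apart by their markers. The summed TPM of 8 hepatocyte markers was 44031 to 66508 in HepG2 libraries and 2348 to 4663 in Caco-2 libraries, and that of 8 intestinal markers was 880.1 to 1173 in Caco-2 and 156.4 to 254.02 in HepG2 libraries. Caco-2 cells had transcripts of all 8 hepatocyte markers in every library, while the intestinal marker CDX1 was listed at 0 in 7 of 11 Caco-2 libraries. The 4 HepG2 libraries that carry the replicate number 3, 1 in each group, stood apart from the other 8. They had 21588 to 22416 genes above 0 TPM against 19259 to 20873, and 2335 of 14255 genes (16.4%) differed with the replicate number at a limma adjusted p under 0.05. HepG2 results are therefore given with these 4 libraries and, for some comparisons, also without them, a choice made after the data had been seen.

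The UGT1A genes lie on chromosome 2 and the UGT2 genes on chromosome 4 of GRCh38. UGT1A1 (2, 233760270 to 233773300, plus strand), UGT1A6 (from 233691607) and UGT1A9 (from 233671898) end at the same base, since each has a first exon of its own and the 9 UGT1A genes share 4 further exons of 1479 bases together. Of the 50-base windows of the main UGT1A1 transcript, 38.0% occur in no other UGT gene, against 40.3% for UGT1A6 and 31.1% for UGT1A9. This share was 99.8% for UGT2A3 (4, 68928463 to 68951804, minus strand), 96.9% for UGT2B4, 93.3% for UGT2B7, 78.0% for UGT2B10, 59.5% for UGT2B11, 73.3% for UGT2B15 and 76.9% for UGT2B17. The levels of UGT1A genes, of UGT2B11 and of the pair UGT2B15 and UGT2B17 thus rest in part on how reads shared between genes were divided.

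RefSeq promoters of build GRCh38.p14 were available for 8 of the 10 genes, with UGT1A6 listed at 2 start sites. Of these, 3 are shown, each as the 250 bases before the start site, because UGT1A1 and a pair of near neighbours in sequence have values in HepG2 cells that are compared further on. The capitals mark TATAAA on either strand. They are UGT1A1 (chr2:233760020-233760269, plus strand), UGT2B10 (chr4:68815744-68815993, plus strand) and UGT2B11 (chr4:69214749-69214998, minus strand).
UGT1A1: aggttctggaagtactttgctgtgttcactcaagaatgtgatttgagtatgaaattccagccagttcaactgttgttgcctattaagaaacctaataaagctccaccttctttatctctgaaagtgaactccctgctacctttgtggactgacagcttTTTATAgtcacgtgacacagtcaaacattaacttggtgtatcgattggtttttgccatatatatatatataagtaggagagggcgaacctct
UGT2B10: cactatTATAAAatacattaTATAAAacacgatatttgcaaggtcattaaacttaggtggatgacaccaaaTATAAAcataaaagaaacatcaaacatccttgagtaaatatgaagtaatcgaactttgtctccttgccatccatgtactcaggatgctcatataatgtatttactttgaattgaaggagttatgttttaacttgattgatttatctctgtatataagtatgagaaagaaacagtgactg
UGT2B11: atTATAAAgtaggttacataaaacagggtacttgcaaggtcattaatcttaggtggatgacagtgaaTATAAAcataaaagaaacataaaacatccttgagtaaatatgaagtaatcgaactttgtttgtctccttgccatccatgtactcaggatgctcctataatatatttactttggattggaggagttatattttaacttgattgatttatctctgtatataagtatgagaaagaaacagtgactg
TATAAA was present in the promoters of 3 of the 8 genes, UGT1A1, UGT2B10 and UGT2B11, and in 11.5% of 35116 promoters of the same length. UGT2B10 and UGT2B11 were the nearest pair among such windows of the 8 genes, and differed by 25 single-base changes, insertions or deletions over 250 bases. Of the other motifs searched, CAAAGTCCA, a site of HNF4 factors, was in 0 of the 8 (0.384% of all promoters), GCGTG, the core of the AHR element, in 2 of the 8 (36.5%), and TGACNNNGC, the antioxidant response element, in 3 of the 8 (13.3%), with both strands searched and windows reaching 50 bases past the start site. These matches describe the letters alone.

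UGT transcripts were far more abundant in HepG2 cells, where UGT2A3, UGT2B7, UGT2B4 and UGT2B10 led, than in Caco-2 cells, where UGT2A3 led at a low level. The summed TPM of the 10 genes was 141.2 to 313.3 in HepG2 and 12.4 to 46.1 in Caco-2 libraries. In this bulk RNA of single lines, fewer cells with a transcript and less of it per cell cannot be told apart. UGT2B15 and UGT2B17, which conjugate androgens, were the reverse, with transcripts in every Caco-2 library and values at or near 0 in HepG2 cells.

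**Figure D1:**
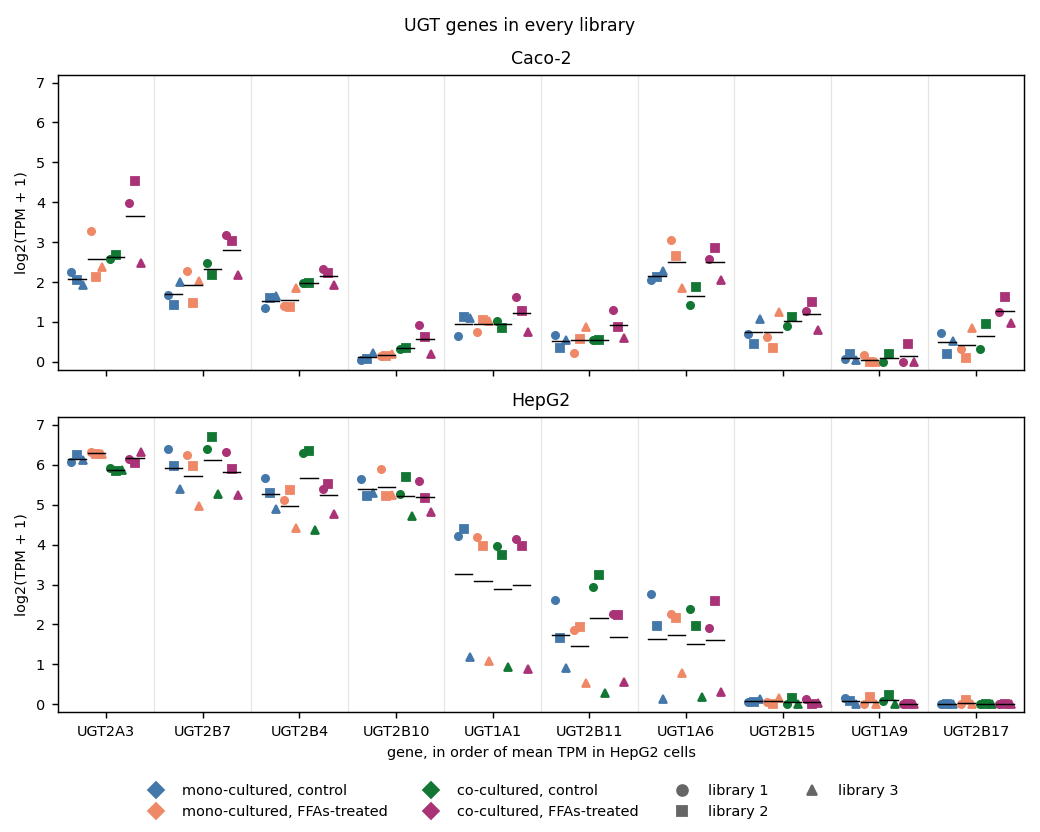
The log2(TPM + 1) value of each UGT gene (x axis) in every Caco-2 library (top) and HepG2 library (bottom), with colour for the group, point shape for the replicate number and a bar for the group mean. HepG2 libraries lie above Caco-2 libraries for UGT2A3, UGT2B7, UGT2B4 and UGT2B10, and below them for UGT2B15. For UGT2B17 they lie below except that mono-cultured FFAs-treated HepG2 library 2, at 0.08 TPM, is just above the lowest Caco-2 library, at 0.07 TPM.

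UGT2A3, which takes bile acids among its substrates and is found in gut and liver, had the highest mean of the 10 genes in both lines. Its TPM in HepG2 cells was 66.5, 75.5 and 68.2 in mono-cultured control, 78.9, 76.3 and 76.0 in mono-cultured FFAs-treated, 59.2, 56.7 and 57.6 in co-cultured control and 70.2, 65.3 and 78.5 in co-cultured FFAs-treated libraries. In Caco-2 cells UGT2A3 had 3.75, 3.13 and 2.79, 8.69, 3.34 and 4.17, 5.01 and 5.45, and 14.9, 22.0 and 4.56 TPM in the same order of groups. All HepG2 libraries exceeded all Caco-2 libraries, and the Caco-2 values were widest among co-cultured FFAs-treated cells.

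UGT2B7, a main enzyme for opioids and many acidic drugs, had 83.3, 61.8 and 41.3 TPM in mono-cultured control, 74.5, 61.9 and 30.1 in mono-cultured FFAs-treated, 82.8, 102.1 and 37.5 in co-cultured control and 79.3, 58.3 and 36.8 in co-cultured FFAs-treated HepG2 libraries. Its Caco-2 values, in the same order, were 2.20, 1.68 and 2.99, then 3.82, 1.76 and 3.06, then 4.53 and 3.55, and then 8.13, 7.17 and 3.51 TPM. The lowest value in each HepG2 group came from the library numbered 3.

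UGT2B4, which conjugates bile acids, had 49.7, 38.2 and 28.5, 33.5, 40.5 and 20.4, 77.4, 79.7 and 19.5, and 41.3, 45.3 and 26.1 TPM in the same 4 groups of HepG2 cells. In Caco-2 cells UGT2B4 had 1.54, 2.01 and 2.14, 1.62, 1.59 and 2.64, 2.95 and 2.92, and 3.99, 3.70 and 2.80 TPM. No co-cultured Caco-2 library was as low as the highest mono-cultured one, and in HepG2 cells the libraries numbered 3 were again the lowest.

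UGT2B10, which attaches glucuronic acid to the nitrogen of nicotine and amine drugs, had 49.01, 36.4 and 38.4, 58.4, 36.3 and 37.1, 37.7, 50.7 and 25.3, and 47.7, 35.05 and 27.4 TPM in HepG2 cells. In Caco-2 cells UGT2B10 stayed under 1 TPM, at 0.03 to 0.17 in mono-cultured libraries, 0.26 and 0.28 in co-cultured control and 0.90, 0.55 and 0.14 in co-cultured FFAs-treated libraries. UGT2B11, whose substrates are less well known, had 0.17 to 1.47 TPM in Caco-2 cells. In HepG2 cells UGT2B11 had 5.15, 2.14 and 0.87, 2.64, 2.84 and 0.46, 6.71, 8.47 and 0.22, and 3.82, 3.74 and 0.48 TPM, again lowest in the libraries numbered 3.

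UGT1A1, the enzyme that conjugates bilirubin, had 17.6, 20.2 and 1.27, 17.3, 14.7 and 1.12, 14.6, 12.5 and 0.92, and 16.6, 14.5 and 0.84 TPM in the same 4 groups of HepG2 cells. In Caco-2 cells UGT1A1 had 0.56 to 2.07 TPM. In each HepG2 group the library numbered 3 lay within the range of the Caco-2 libraries, and the other 8 libraries were all above 12 TPM.

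UGT1A6, an enzyme of small phenols, had means of 4.02 TPM in Caco-2 and 2.68 TPM in HepG2 cells. Its values were 5.82, 2.91 and 0.10, 3.82, 3.49 and 0.71, 4.22, 2.88 and 0.14, and 2.75, 5.05 and 0.23 TPM in HepG2 cells. In Caco-2 cells UGT1A6 had 3.16, 3.40 and 3.85, 7.25, 5.27 and 2.58, 1.71 and 2.70, and 4.98, 6.19 and 3.14 TPM. The order of its 8 group means ran from 5.03 TPM in mono-cultured FFAs-treated Caco-2 cells to 2.20 TPM in co-cultured Caco-2 control cells, with the ranges of every pair of neighbours overlapping.

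UGT2B15 had 0.63, 0.37 and 1.10, 0.54, 0.27 and 1.38, 0.88 and 1.19, and 1.43, 1.84 and 0.75 TPM in Caco-2 cells and at most 0.12 TPM in HepG2 cells. UGT2B17 had 0.65, 0.15 and 0.45, 0.26, 0.07 and 0.80, 0.25 and 0.94, and 1.37, 2.09 and 0.95 TPM in Caco-2 cells, and was listed at 0 in 11 of 12 HepG2 libraries. UGT1A9, a phenol and drug enzyme, did not exceed 0.36 TPM in any library and was listed at 0 in 5 of 11 Caco-2 and 7 of 12 HepG2 libraries. The Caco-2 group means of UGT2B15 were 0.70 to 1.34 TPM, each above every HepG2 group mean, and each Caco-2 group overlapped the next Caco-2 group in order. For UGT2B17 the order began with co-cultured FFAs-treated Caco-2 cells at 1.47 TPM, which did not overlap the co-cultured control cells that followed.

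For UGT1A1, UGT2A3, UGT2B4, UGT2B7, UGT2B10 and UGT2B11 the order of the 8 group means put all 4 HepG2 groups first. For UGT1A9 groups of both lines were mixed, from a highest mean of 0.12 TPM (Caco-2, co-culture with FFAs) to 0 (HepG2, co-culture with FFAs). Neighbouring groups overlapped in this order except that, for UGT2A3, co-cultured HepG2 control cells lay below the other HepG2 groups and above all Caco-2 groups, and mono-cultured Caco-2 control cells came last without overlap. For UGT2B4, UGT2B7 and UGT2B10 the lowest HepG2 group did not overlap the highest Caco-2 group, and for UGT2B4 and UGT2B10 the co-cultured control Caco-2 group did not overlap the mono-cultured group next in order. UGT1A1 and UGT2B11 overlapped throughout, as the HepG2 libraries numbered 3 reached down to the Caco-2 values.

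The lines were compared in a fit of log2(TPM + 1) over all 23 libraries with limma, where 9 of the 10 genes reached the required group mean of 1 TPM somewhere and UGT1A9 did not. Averaged over the 4 conditions, 8 of 9 UGT genes differed at an adjusted p under 0.05, as did 79.0% of the 16495 genes tested, so that the count itself is near the background. Lower in Caco-2 cells were 6 of the 9 (29.2% of all genes), and higher 2 of the 9 (49.8%). The median difference of all genes was 0.24 higher in Caco-2 cells with TPM as deposited, 0.05 after median-of-ratios scaling and -0.0036 after quantile normalization, and the called genes split into 8216 higher and 4814 lower, 6728 and 6091, and 6424 and 6424. No UGT gene that differed changed direction under either scaling.

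UGT2B10 was lower in Caco-2 cells by a log2 difference of -5.02 (SE 0.13, limma adjusted p = 5.65e-18). UGT2B7 differed by -3.71 (SE 0.20), UGT2B4 by -3.48 (SE 0.20) and UGT2A3 by -3.38 (SE 0.18), with limma adjusted p values of 1.58e-12, 2.68e-12 and 6.01e-13. UGT1A1 differed by -2.04 (SE 0.49, limma adjusted p = 0.000881) with all libraries and by -3.06 (SE 0.12, limma adjusted p = 1.07e-12) without the HepG2 libraries numbered 3. With all UGT1A genes in 1 value (UGT1A summed) the difference with all libraries was -0.77 (95% confidence interval -1.85 to 0.32, limma adjusted p = 0.18) and did not pass. The summed UGT1A TPM was 17.4 to 26.4 in HepG2 libraries numbered 1 or 2 and 1.20 to 2.19 in those numbered 3. It was 3.53 to 9.02 in Caco-2 libraries, between these 2 ranges. The sum was not fitted without the libraries numbered 3. UGT2B11 differed by -1.12 (SE 0.32, limma adjusted p = 0.00345) and, without those libraries, by -1.71 (SE 0.14, limma adjusted p = 1.48e-08).

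UGT2B15 was higher in Caco-2 cells by 0.86 on the log2(TPM + 1) scale (SE 0.11, limma adjusted p = 7.03e-07) and UGT2B17 by 0.70 (SE 0.11, limma adjusted p = 6.88e-06). These values understate ratios, since both genes were near the added 1 TPM. The value of UGT2B15 and UGT2B17 summed, which does not depend on how shared reads were divided between them, was higher by 1.24 (SE 0.14, limma adjusted p = 8.61e-08). UGT1A6 did not pass, at 0.59 (95% confidence interval -0.12 to 1.29, limma adjusted p = 0.116), and stood at -0.046 (-0.42 to 0.33, limma adjusted p = 0.818) without the HepG2 libraries numbered 3. Without library 1 of mono-cultured HepG2 control cells alone, UGT1A6 passed, at 0.73 (limma adjusted p = 0.0482). It also passed when the replicate number was a term of the fit (limma adjusted p = 0.0027). Single conditions gave 7 of 9 genes in mono-cultured control (62.4% of all genes), 5 of 9 in mono-cultured FFAs-treated (61.1%), 6 of 9 in co-cultured control (58.8%) and 6 of 9 in co-cultured FFAs-treated cells (61.0%). UGT2A3, UGT2B4, UGT2B7, UGT2B10 and UGT2B15 were among the called genes in all 4.

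**Figure D2:**
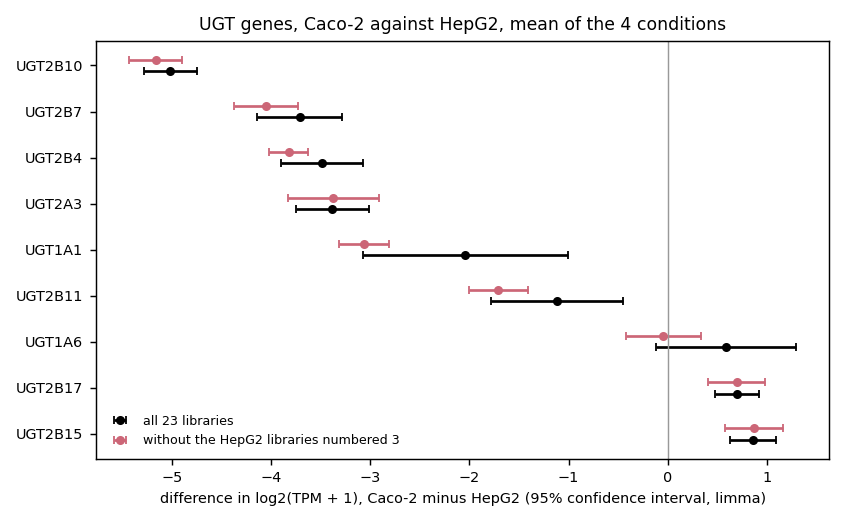
Difference in log2(TPM + 1) between Caco-2 and HepG2 cells for each UGT gene, averaged over the 4 conditions, with its 95% confidence interval from limma, in black for all 23 libraries and in red without the HepG2 libraries numbered 3. UGT2B10 is farthest to the left at -5.02, UGT2B15 and UGT2B17 lie to the right of 0, and leaving out these libraries moves UGT1A1 from -2.04 to -3.06.

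Among HepG2 libraries, more UGT genes were called for the replicate number than for FFAs or co-culture. When the replicate number was added to the 4 groups as a term, 5 of the 7 UGT genes tested differed with it at a limma adjusted p under 0.05, where 16.4% of all genes did, and the same 5 were lower in all 4 libraries numbered 3 than in all 8 others, where 6.81% of all genes were. The 5 were UGT1A1, UGT1A6, UGT2B7, UGT2B11 and UGT2B4. In Caco-2 cells 0 of 7 UGT genes differed with the number, and 0.603% of all genes did. The Caco-2 count rests on the number of co-cultured control library 2, which had 23689 genes above 0 TPM, against 22637 to 23682 in the Caco-2 libraries numbered 3 and 20996 to 22126 in the others, and without it 0 of 7 UGT genes and 6 of 15236 genes differed. The test compares the 3 numbers with each other. The term was added after the data had been seen.

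UGT1A1 had a mean of 16.0 TPM in the 8 libraries numbered 1 or 2, from 12.5 to 20.2, and of 1.04 TPM in the 4 numbered 3, from 0.84 to 1.27, a ratio of 15.4. Within the 4 groups this ratio was 14.3 to 18.5. Its limma adjusted p for the replicate number was 9.24e-07, and it ranked 2 of 14255 genes by p. Summed over all 9 UGT1A genes, which does not depend on how reads of the shared exons were divided among them, TPM was 17.4 to 26.4 in the 8 libraries and 1.20 to 2.19 in the 4.

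UGT1A6 had 3.87 TPM on average against 0.295 TPM (limma adjusted p = 0.00113), with 0.71 TPM in the highest of the libraries numbered 3. UGT2B11 had 4.44 against 0.507 TPM, a ratio of 8.75 (limma adjusted p = 0.00473). UGT2B7 had 75.5 against 36.5 TPM, a ratio of 2.07 (limma adjusted p = 0.00118), and UGT2B4 had 50.7 against 23.6 TPM, a ratio of 2.14 (limma adjusted p = 0.0151). The UGT1A1 difference was thus the widest of the 5 genes on the TPM scale relative to its level, and the UGT2B7 difference the narrowest.

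UGT2B10, whose promoter is printed above beside that of UGT2B11, had 43.9 against 32.04 TPM, a ratio of 1.37 that did not pass (limma adjusted p = 0.0859). UGT2A3 had 68.6 against 70.06 TPM (limma adjusted p = 0.938). Among the libraries numbered 3 UGT2A3 therefore made up 38.2 to 46.05% of the summed TPM of the 10 genes, against 18.1 to 32.3% in the others, and the UGT1A genes 0.628 to 1.10% against 4.95 to 9.76%.

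Several genes around the UGTs were measured in the same libraries. Of 10 regulators of UGT genes tested, 1 differed with the HepG2 replicate number, NFE2L2, the factor of the antioxidant response, at 160.8 TPM on average in the libraries numbered 1, 236.7 TPM in those numbered 2 and 179.8 TPM in those numbered 3 (limma adjusted p = 0.0422). HNF4A had 93.4, 89.4 and 73.1 TPM in the same order (limma adjusted p = 0.0568) and did not pass. The xenobiotic receptor NR1I2 had 17.9, 21.3 and 12.9 TPM (limma adjusted p = 0.0678) and did not pass either. UGDH, which makes UDP-glucuronic acid, was higher in all 4 libraries numbered 3, at 847.8 against 699.7 TPM (limma adjusted p = 0.029), and 0 of 5 efflux transporters and 0 of 8 hepatocyte markers differed. The part of a date, a passage or a library preparation in these differences was not tested, since the labels give none.

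**Figure D3:**
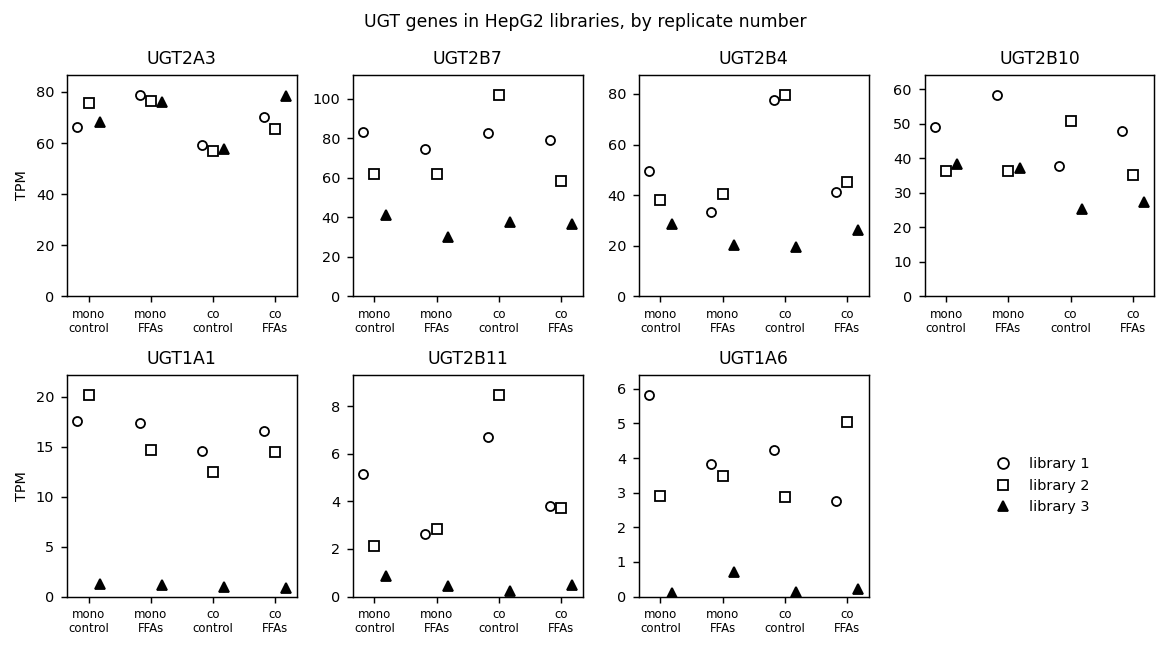
TPM of the 7 UGT genes tested in HepG2 cells (1 panel each, axis from 0) in the 4 groups on the x axis, with open circles and squares for libraries 1 and 2 and filled triangles for library 3. The triangles are lowest in every group for UGT1A1, UGT1A6, UGT2B11, UGT2B7 and UGT2B4. For UGT2A3 the triangle is highest in co-cultured FFAs-treated cells, lowest in mono-cultured FFAs-treated cells and between the other libraries in both control groups.

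**Figure D4:**
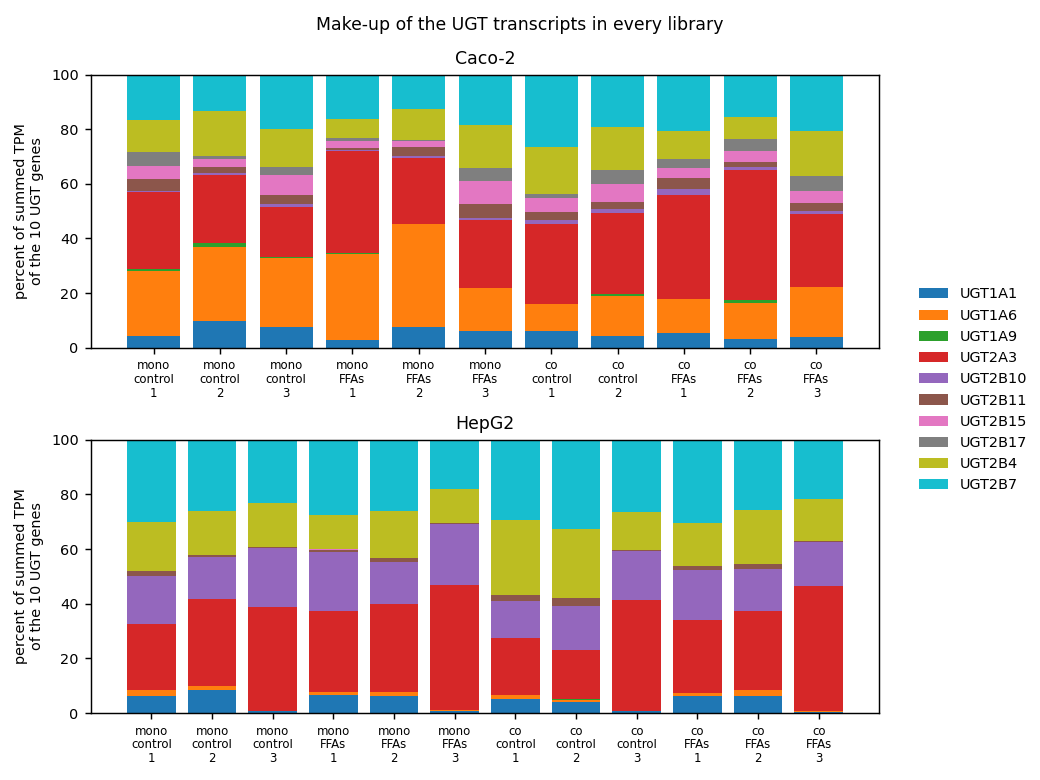
Percent of the summed TPM of the 10 UGT genes taken by each gene in every library, Caco-2 above and HepG2 below, with groups and replicate numbers under the bars. UGT1A genes take 16.04 to 45.4% in Caco-2 libraries, 4.95 to 9.76% in HepG2 libraries numbered 1 or 2 and 0.628 to 1.10% in those numbered 3.

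FFAs and co-culture gave no UGT gene a limma adjusted p under 0.05 within either line. In Caco-2 cells 0 of 7 UGT genes passed for FFAs in mono-culture (0% of 15081 genes) or in co-culture (0.0199%), for co-culture without FFAs (0.0199%) or with FFAs (0%), for FFAs and co-culture each averaged over the other factor (0% and 0%), or for the difference of the FFAs effect between cultures (0%). In HepG2 cells 0 of 7 passed in the same comparisons, where 0.0561% of 14255 genes were called for co-culture averaged over both treatments and 0% in each of the other 6. At an unadjusted p under 0.05, limma gave 4 of 7 UGT genes in Caco-2 cells for co-culture averaged over both treatments (10.5% of all genes) and 4 of 7 for co-culture with FFAs (6.09%). It gave 2 of 7 for FFAs averaged over both cultures (3.99%), 1 of 7 for FFAs in co-culture (2.83%) and 0 of 7 in the other 3. In HepG2 cells it gave 1 of 7 for co-culture averaged over both treatments (12.5%), for FFAs averaged over both cultures (3.49%), for FFAs in co-culture (1.84%) and for co-culture without FFAs (7.53%), and 0 of 7 in the other 3.

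By the criteria of the study, a one-way analysis of variance per gene without adjustment together with a minimum gap between the highest and lowest group mean, 1 of 10 UGT genes was called in each line. It was UGT2B4 in Caco-2 cells (3.08% of 31100 genes were called) and UGT2A3 in HepG2 cells (3.56% of 29942 genes). Exact permutation tests of the F statistic over all 92400 arrangements of the Caco-2 libraries and 369600 of the HepG2 libraries gave p = 0.0197 for UGT2B4 and p = 0.00435 for UGT2A3. The same statistic had already called both genes, so that these tests add no separate support. No other of the 10 genes was under 0.05 by permutation in either line, with UGT2B7 in Caco-2 cells lowest (permutation p = 0.059). After Benjamini-Hochberg adjustment over all genes neither was called. A missed threshold does not show that levels were equal.

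In Caco-2 cells the smallest p values went with co-culture. UGT2B4 was higher in all 5 co-cultured than in all 6 mono-cultured libraries, with means of 3.27 and 1.92 TPM and an averaged log2 difference of 0.53 (SE 0.15, limma adjusted p = 0.308), and was the single gene of the 7 whose libraries did not overlap, as 1.38% of all genes did not. Without FFAs the log2 difference of UGT2B4 was 0.45 (SE 0.23, limma adjusted p = 0.867) and with FFAs 0.62 (SE 0.20, limma adjusted p = 0.786). UGT2B7 and UGT2A3 had averaged log2 differences of 0.75 (SE 0.22, limma adjusted p = 0.316) and 0.82 (SE 0.33, limma adjusted p = 0.436) with overlapping libraries. Without the co-cultured FFAs-treated library 1 the ratio of the UGT2B4 means was 1.61 in place of 1.70.

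Without FFAs, 4 of 7 UGT genes did not overlap between co-cultured and mono-cultured Caco-2 libraries, and neither did 23.1% of all genes in this comparison of 2 libraries with 3. They were UGT2B4, UGT2A3 with a log2 difference of 0.57 (SE 0.50, limma adjusted p = 0.884), UGT2B7 with 0.63 (SE 0.33, limma adjusted p = 0.867) and, lower in co-culture, UGT1A6 with -0.49 (SE 0.34, limma adjusted p = 0.867). With FFAs, UGT2B4 and UGT2B17 did not overlap (9.32% of all genes), and the log2 difference of UGT2B17 was 0.85 (SE 0.30, limma adjusted p = 0.807). The intervals of these differences were wide, from -0.52 to 1.65 for UGT2A3 and from 0.20 to 1.50 for UGT2B17.

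FFAs in co-cultured Caco-2 cells left UGT1A6 and UGT2B17 without overlap (17.2% of all genes). UGT1A6 had means of 2.20 TPM without and 4.77 TPM with FFAs, a log2 difference of 0.83 (SE 0.34, limma adjusted p = 1) that did not pass, and UGT2B17 had means of 0.595 and 1.47 TPM, a log2 difference of 0.64 (SE 0.33, limma adjusted p = 1). In mono-cultured Caco-2 cells 0 of 7 UGT genes separated FFAs-treated from control libraries (7.13% of all genes), and over both cultures 0 of 7 did (0.424%). UGT2A3, at 13.8 ± 8.76 TPM (SD, n = 3) in co-cultured FFAs-treated cells, owed its mean to 14.9 and 22.0 TPM in libraries 1 and 2, while library 3 had 4.56 TPM, below both co-cultured control libraries.

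Hepatocyte markers were measured in the same Caco-2 libraries. Of the 8 hepatocyte markers, TF, which encodes transferrin, had the lowest share of its HepG2 level in mono-cultured Caco-2 cells, 0.0688 to 0.127%, and it reached 0.576% in co-cultured control library 1 and 1.79% in co-cultured FFAs-treated library 1, with 0.0561 to 0.138% in the other 3 co-cultured libraries. The summed level of all 8 markers was 3447 to 4663 TPM in co-cultured and 2348 to 3896 TPM in mono-cultured Caco-2 libraries, and none was at 0. The ratio of co-cultured to mono-cultured means ran from 0.97 for SERPINC1 to 5.40 for TF. It was 1.11 for AHSG, 1.12 for APOH, 1.27 for AFP, 1.31 for ALB, 1.75 for FGG and 2.14 for FGB. Without co-cultured FFAs-treated library 1 the ratio was 2.18 for TF, 1.75 for FGG and 2.07 for FGB. UGT2B10 was at 2.25% of its mean HepG2 level in co-cultured FFAs-treated library 1, the library with the most TF. It was at 0.65% in co-cultured control library 1, which had the next most TF, and at 0.70% in control library 2. FFAs-treated libraries 2 and 3 had 1.38 and 0.35%, and mono-cultured libraries 0.0751 to 0.425%. The part of the hepatocyte markers in the Caco-2 values was not tested. UGT2B15 and UGT2B17, listed at or near 0 in HepG2 cells, had 0.75 to 1.84 TPM and 0.25 to 2.09 TPM in co-cultured Caco-2 libraries.

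**Figure D5:**
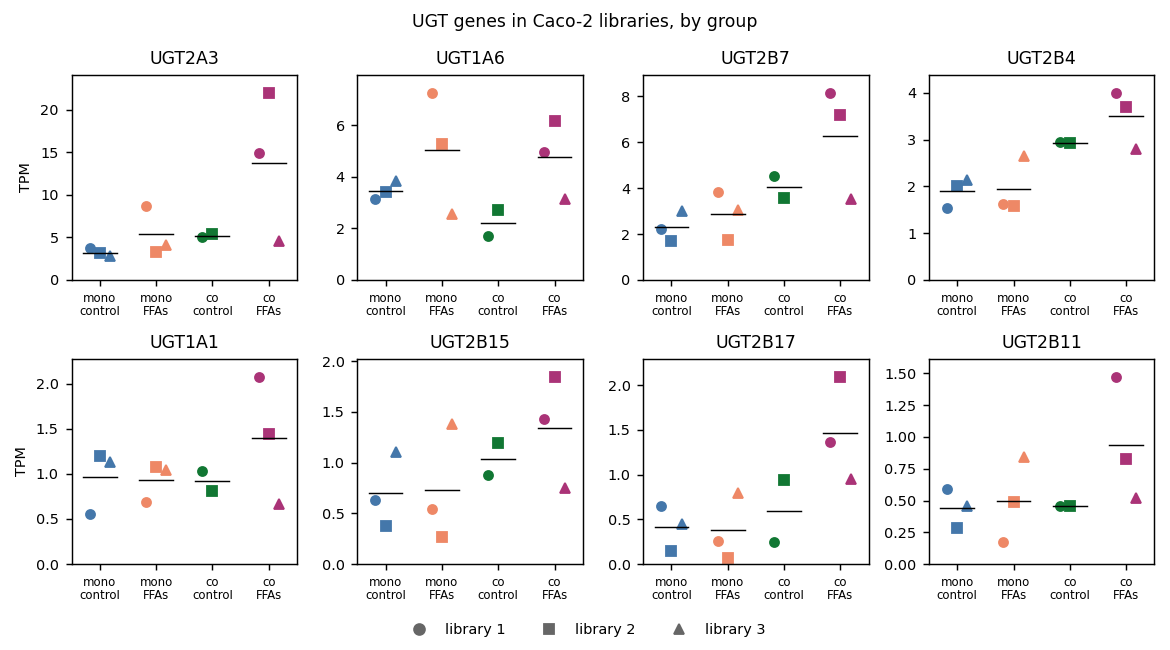
TPM of the 8 UGT genes with the highest means in Caco-2 cells (1 panel each, axis from 0) in the 4 groups on the x axis, with point shape for the replicate number and a bar for the group mean. All co-cultured points of UGT2B4 lie above all mono-cultured ones, and UGT2A3 in co-cultured FFAs-treated cells spreads from 4.56 to 22.0 TPM.

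In HepG2 cells UGT2A3 was the UGT gene whose libraries separated groups. FFAs-treated libraries were above control libraries in mono-culture (means 77.1 and 70.1 TPM), where 6.47% of all genes did not overlap, and in co-culture (means 71.3 and 57.8 TPM), where 5.42% did not. The log2 differences of UGT2A3 were 0.14 (SE 0.097, limma adjusted p = 1) and 0.29 (SE 0.097, limma adjusted p = 1), and without the libraries numbered 3 they were 0.13 and 0.22 (limma adjusted p = 0.831 and 0.992). Without FFAs UGT2A3 was lower in all co-cultured than in all mono-cultured libraries (14.9% of all genes did not overlap), by a log2 difference of -0.27 (SE 0.097, limma adjusted p = 0.631), and by -0.29 (limma adjusted p = 0.454) without the libraries numbered 3.

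With all 12 libraries, no other UGT gene separated groups of HepG2 libraries in these 3 comparisons, and 0 of 7 did for co-culture with FFAs (9.60% of all genes), for FFAs over both cultures (0.0982%) or for co-culture over both treatments (1.35%). With the libraries numbered 1 and 2 alone, each comparison was 2 against 2. With FFAs in mono-culture UGT2A3 was higher and UGT1A1 lower without overlap (2 of 7, beside 36.5% of all genes). With FFAs in co-culture UGT2A3 was higher and UGT2B4, UGT2B7 and UGT2B11 lower (4 of 7, beside 31.5%). In co-culture without FFAs UGT2B4 and UGT2B11 were higher and UGT2A3 and UGT1A1 lower (4 of 7, beside 45.7%). In co-culture with FFAs UGT2B4 and UGT2B11 were higher and UGT2A3 lower (3 of 7, beside 33.5%). In these libraries UGT2B4 had the smallest p values among the UGT genes in HepG2 cells. It was at 77.4 and 79.7 TPM in co-cultured control libraries and at 33.5 to 49.7 TPM in the other 6, with log2 differences of 0.84 (SE 0.16, limma adjusted p = 0.33) for co-culture without FFAs and -0.85 (SE 0.16, limma adjusted p = 0.992) for FFAs in co-culture. The co-cultured control library numbered 3 had 19.5 TPM, the lowest UGT2B4 value of the 12.

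The effects were also compared between lines. FFAs effects averaged over both cultures differed between Caco-2 and HepG2 cells for 0 of 9 UGT genes (0.0182% of 16495 genes), and co-culture effects averaged over both treatments for 0 of 9 (0.533%). UGT2A3 came nearest for co-culture, with a log2 difference of 0.82 (SE 0.33) in Caco-2 and -0.19 (SE 0.069) in HepG2 cells and a difference between lines of 1.01 (SE 0.35, limma adjusted p = 0.173). Without the co-cultured FFAs-treated Caco-2 library 3 this difference of UGT2A3 had a limma adjusted p of 0.0138.

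The remaining steps of glucuronidation were measured as lists, whose genes were chosen with earlier results known. Of 5 genes that supply or use UDP-glucuronic acid, or remove glucuronic acid again, 5 differed between lines averaged over the 4 conditions, where 79.0% of all genes did. UGDH was lower in Caco-2 cells (262.5 against 749.03 TPM), as were the transporter into the endoplasmic reticulum SLC35D1 (9.12 against 24.1 TPM) and UXS1, which turns UDP-glucuronic acid into UDP-xylose (85.3 against 119.6 TPM). UGP2, which makes UDP-glucose, and GUSB, the lysosomal enzyme that splits glucuronides, were higher (191.5 against 91.8 TPM and 202.6 against 77.4 TPM). The median log2 difference of the 5 was -0.49, beside 0.24 over all genes.

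Of 5 efflux transporters that carry glucuronides, 5 differed between lines, again beside 79.0% of all genes, with ABCC2, ABCC1 and ABCG2 lower and ABCC3 and ABCC4 higher in Caco-2 cells. ABCC2, on the apical side, had 73.5 against 104.6 TPM, and ABCC3, on the basolateral side, 55.5 against 40.3 TPM. ABCC3 no longer passed after median-of-ratios scaling or quantile normalization (limma adjusted p = 0.0777 and 0.0701). Of 11 regulators 8 differed, 3 higher and 5 lower in Caco-2 cells, a share no higher than that of all genes. NR1I2, the pregnane X receptor, had 0.786 against 17.4 TPM and NR1H4, the bile acid receptor, 0.295 against 39.4 TPM, while HNF4A had 110.97 against 85.3 TPM. After median-of-ratios scaling HNF4A no longer passed (limma adjusted p = 0.103), and RXRA was lower by -0.16 (limma adjusted p = 0.038). Within lines 0 of 5, 0 of 5 and 0 of 10 genes of these lists passed for FFAs or co-culture averaged over the other factor.

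The genes whose pattern over libraries was most like that of UGT2A3, by Pearson's r of log2(TPM + 1), were SYNM (0.95), MSRB1 (0.95) and TGFBI (0.94) over the 11 Caco-2 libraries, and COL18A1 (0.90), RELN (0.90) and ANGPTL4 (0.90) over the 12 HepG2 libraries. These are descriptions over libraries that share groups and replicate numbers.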

How the data were processed

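mRNA was amplified with SMART-Seq v4, which does not mark strand, and sequenced in 23 libraries of Caco-2 and HepG2 cells. Per the labels and methods, the authors removed rRNA, tRNA and mitochondrial reads with Bowtie2 2.1.0, aligned the rest to GRCh38 with STAR 2.7.1a and deposited TPM values per gene from RSEM 1.3.0. RSEM divides reads shared by several genes among them by estimate. No counts were used, so that depth is unknown.

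Genes whose mean reached 1 TPM in any group were tested on log2(TPM + 1) with limma 3.58.1 in R 4.3.3 (empirical Bayes with trend), in a fit over the 4 groups of a line or over all 8, with Benjamini-Hochberg adjustment over all genes tested. An adjusted p under 0.05 was called. Fold changes on this scale understate those of low genes. Alternatives were a pseudocount of 0.1, no filter, median-of-ratios scaling, quantile normalization, no trend, summed UGT1A genes, a replicate block, fewer groups and leaving out each library. The fits were tested on simulated data with independent noise in each library and differences planted only in genes of higher TPM. Deviations shared by same-numbered libraries, and genes as low as most UGT genes in Caco-2 cells, were not covered by this. All 10 UGT genes are named, with TPM per library where a group mean reached 1 TPM, and with fitted differences where a gene was called or its libraries did not overlap. Differences outside this rule (UGT2A3 between lines, UGT2B4 in HepG2 libraries 1 and 2, UGT1A6 between lines) were chosen after their values were seen. The UGT genes and the gene lists were chosen with earlier results of these data known. Windows of 50 bases were taken from GENCODE v44 transcripts. Some genes of the regulator list, and 1 motif, are not reported here.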

Additional observations from a re-analysis of the deposited data

How the results depend on the processing

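Over all alternatives, the counts of UGT genes called kept within 1.5 times of those reported in 549 of 561 cases and moved in 12. Most of these cases belong to comparisons with a reported count of 0, and a count that stayed at 0 was taken as kept. By the criteria of the study, the 1 UGT gene called became 0 in either line with Benjamini-Hochberg adjustment, and 3 in Caco-2 cells (UGT2B17, UGT2B4 and UGT2B7) with the moderated F test of limma. Leaving out 1 library gave 0 to 4 UGT genes in Caco-2 cells, with 0 without library 1 or 2 and 4 without library 3 of co-cultured FFAs-treated cells and 3 without library 3 of mono-cultured FFAs-treated cells, and 1 to 2 in HepG2 cells, with 2 without library 3 of co-cultured control cells. Between lines in mono-cultured control cells the count was 4 to 7, with 4 without the Caco-2 library 3 (UGT2B15 and UGT2B17 were lost with UGT1A1), and for co-culture effects between lines it was 0 to 1. The replicate numbers were not taken to pair the libraries in the main fits. Of same-numbered pairs 7 of 15 in Caco-2 and 15 of 18 in HepG2 cells had deviations that correlated above 0.1 (lowest -0.093 and 0.028, medians 0.088 and 0.30). Of differently numbered pairs 6 of 30 and 7 of 36 did (medians -0.12 and -0.23). The main fits hold no term for the number, so that differences that go with it, as in HepG2 cells, count in their spread. In Caco-2 cells this check and the block rest on the number of co-cultured control library 2. Under the replicate block, 8 UGT genes in place of 5 differed between lines in mono-cultured FFAs-treated cells, UGT1A6 differed between lines averaged over the 4 conditions (log2 difference 0.55, limma adjusted p = 0.0027), and 2 UGT genes (UGT2A3 and UGT2B7) met the criteria of the study in Caco-2 cells by the moderated F test. The block changed no other count by over 1.5 times. UGT1A6 between lines also passed without library 1 of mono-cultured HepG2 control cells, at 0.73 (limma adjusted p = 0.0482), and reversed to -0.046 without the HepG2 libraries numbered 3. Over all genes, the criteria of the study called 957 in Caco-2 and 1066 in HepG2 cells, 9 and 1 after adjustment, and 1840 and 2076 under the block with the moderated F test. The HepG2 replicate number was called for 2335 genes, 1354 without the filter and 986 to 3041 on leaving out 1 library (fewest without the mono-cultured FFAs-treated library 3), with 4 to 6 UGT genes in all cases, and the Caco-2 number for 91 genes, 4 without the trend, 5 without the filter and 0 to 109 on leaving out 1 library, with 0 UGT genes. The cause of these changes was not tested. For the UGT genes called between lines averaged over the 4 conditions, UGT1A6 in that comparison, and the UGT genes whose libraries did not overlap within a line, 501 of 504 alternatives kept direction and side of the threshold, with the 3 exceptions of UGT1A6 above. UGT2A3 in co-culture effects between lines (1.01, limma adjusted p = 0.173) is not among these and passed without library 3 of co-cultured FFAs-treated Caco-2 cells (limma adjusted p = 0.0138). With 2 or 3 libraries a group and unknown depth, differences within a line could be missed. The confidence intervals given are not adjusted for the number of genes tested. An interval clear of 0 could therefore go with an adjusted p above 0.05, so that the intervals are not limits of detection.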

Other observations

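Other UGT genes were listed at low values, with 1 exception. Of 12 further UGT genes, 11 reached a group mean of 1 TPM in neither line, and UGT8, which attaches galactose to ceramide and not glucuronic acid to drugs, had 30.2 to 70.6 TPM in Caco-2 libraries against at most 0.30 TPM in HepG2 libraries (log2 difference 5.27, SE 0.092, limma adjusted p = 2.09e-20). UGT8 was higher in Caco-2 cells than any of the 10 UGT genes described above in each of the 11 libraries. UGT1A3 and UGT1A4 followed UGT1A1 in HepG2 cells, at 1.02 and 0.304 TPM on average in the libraries numbered 1 or 2 and 0.0875 and 0.015 TPM in those numbered 3. UGT1A10 had 0.68 and 0.04 TPM, with overlapping libraries. All 3 were at low values, and reads of exons shared with UGT1A1 were divided by estimate, so that these values are not independent of UGT1A1.

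Among the genes measured beside the UGTs, ABCG2, an efflux transporter of the apical membrane, and the fibrinogen genes FGB and FGG had co-culture effects that differed between lines. The difference, Caco-2 minus HepG2, was -1.003 (SE 0.22, limma adjusted p = 0.0435) for ABCG2, 1.42 (SE 0.27, limma adjusted p = 0.0231) for FGB and 1.23 (SE 0.21, limma adjusted p = 0.0138) for FGG, where 0.533% of all genes were called. FGG did not pass after quantile normalization (1.01, limma adjusted p = 0.0564).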
